A study of Mus musculus with 4 samples.

Results

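The levels of 6 genes of neuronal calcium-binding proteins, *Calb1*, *Calb2*, *Pvalb*, *Necab1*, *Necab2* and *Necab3*, were described in single nuclei of the mouse posterior hindbrain. They were taken by name as the calbindins, parvalbumin and the Necab family, and they are 6 of the 32285 genes counted. The study asked how hindbrain cells respond when AgRP neurons, which drive feeding, are switched on while POMC neurons, which restrain it, are switched off. The labels call the control mice WT, and the study's methods describe its controls as negative for Cre and Dre (AgRP-IRES-Cre-/- and POMC-Dre-/-) while carrying hM3DGqfl/- and hM4DGifl/-. The AgRP-Gq;POMC-Gi mice carried AgRP-IRES-Cre+/- and POMC-Dre+/- with the same receptor alleles, so that Cre switches on an activating receptor in cells with *Agrp* and Dre an inhibitory receptor in cells with *Pomc*. All mice, controls included, were 12 to 20 weeks old and had received the ligand of these receptors, clozapine-N-oxide (CNO), at 3 mg per kg intraperitoneally 1 h before death, and both sexes were used. There were 2 libraries per group, and the design text says that tissue of a group was pooled from 2 mice, without saying how mice were divided between libraries.

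Calcium-binding proteins of this kind hold calcium in loops known as EF-hands. *Calb1* encodes calbindin, *Calb2* calretinin and *Pvalb* parvalbumin, which buffer calcium in the cytosol and have long been used as labels that divide neurons into types, while *Necab1*, *Necab2* and *Necab3* encode proteins with an N-terminal EF-hand and a C-terminal monooxygenase-like domain. Calbindin is known from Purkinje cells and neurons of the inferior olive, calretinin from unipolar brush cells and granule cells, and parvalbumin from fast-firing neurons.

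The files held UMI counts, that is, counts of distinct RNA molecules read from their 3′ ends. The deposited annotation kept 39461 of 44303 barcodes as nuclei and gave them 14 cell types and 184 clusters, 134 of them neuronal with 12539 nuclei. The 4 libraries gave 2470 to 3696 neurons each, with 26860073 to 35583732 UMIs, and the neuron share was 25.4% and 27.2% for control against 38.0% and 36.5% for AgRP-Gq;POMC-Gi. The neuronal markers *Rbfox3*, *Snap25*, *Syt1* and *Stmn2* were highest in the neurons. Levels are given as counts per 1000000 UMIs (CPM) of the same nuclei, as the mean ± SD of the 4 libraries, and are compared within a gene only, since 3′ counts of nuclear RNA depend on gene structure. *Xist* stood at 507, 319 and 541 CPM in neurons of the first 3 libraries and at 16.2 CPM in AgRP-Gq;POMC-Gi replicate 2, so the libraries of that group did not hold the same mix of animals. Where values of single libraries are given, replicate 1 of a group comes before replicate 2. Between 19 and 36 barcodes were shared by any pair of libraries.

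All members are protein-coding genes of GRCm38. *Calb1* (ENSMUSG00000028222) lies on chr4:15881264-15908064 on the plus strand, and *Necab1* (ENSMUSG00000040536) on chr4:14952245-15149794 on the minus strand, 731 kb from it. *Calb2* (ENSMUSG00000003657) lies on chr8:110137502-110168210 on the minus strand and *Necab2* (ENSMUSG00000031837) on chr8:119446719-119472640 on the plus strand. *Pvalb* (ENSMUSG00000005716) lies on chr15:78191114-78206400 and *Necab3* (ENSMUSG00000027489) on chr2:154544399-154558890, both on the minus strand. *Necab1* overlaps the antisense genes *Gm11844* and *Gm11837*, with 2468 and 394 UMIs in neurons, and *Necab3* overlaps *1700003F12Rik* and *Actl10* on the other strand, with 1447 and 18 UMIs, and whether reads were exchanged between them was not tested.

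In neurons, the 3 Necab genes and *Calb1* stood well above the level in oligodendrocytes, *Calb2* less so, and *Pvalb* hardly at all. Oligodendrocytes, the most numerous type, served as the reference, since droplets also take up free RNA. How much of their values is free RNA was not tested. *Necab1* was at 88.8 and 88.4 CPM for control and 95.1 and 97.9 CPM for AgRP-Gq;POMC-Gi, a mean of 92.6 ± 4.71 CPM against 2.82 ± 0.816 CPM in oligodendrocytes. *Necab3* was at 29.8 and 28.7 CPM for control and 27.4 and 26.5 CPM for AgRP-Gq;POMC-Gi, and at 2.95 ± 0.311 CPM in oligodendrocytes. *Necab2* was at 17.6 and 15.1 CPM for control and 14.2 and 17.8 CPM for AgRP-Gq;POMC-Gi, and at 1.67 ± 0.388 CPM in oligodendrocytes. For these 3 genes the values of the neurons lay close together and every library had its neurons far above its oligodendrocytes.

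*Calb1* was at 26.8 and 25.3 CPM for control and 15.6 and 31.6 CPM for AgRP-Gq;POMC-Gi, where AgRP-Gq;POMC-Gi replicate 1 was the lowest and AgRP-Gq;POMC-Gi replicate 2 the highest, and it was at 4.78 ± 1.87 CPM in oligodendrocytes. *Calb2* was at 18.8 and 13.1 CPM for control and 9.50 and 12.8 CPM for AgRP-Gq;POMC-Gi, with control replicate 1 the highest, and its oligodendrocyte values were 9.48, 7.46, 4.95 and 8.94 CPM in the same order. *Pvalb* was at 24.1 and 22.6 CPM for control and 15.4 and 22.3 CPM for AgRP-Gq;POMC-Gi, and its oligodendrocyte values of 18.6, 19.4, 11.1 and 19.0 CPM were almost as high. For *Pvalb* and *Calb2*, AgRP-Gq;POMC-Gi replicate 1 was the lowest library both in neurons and in oligodendrocytes.

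**Figure D1:**
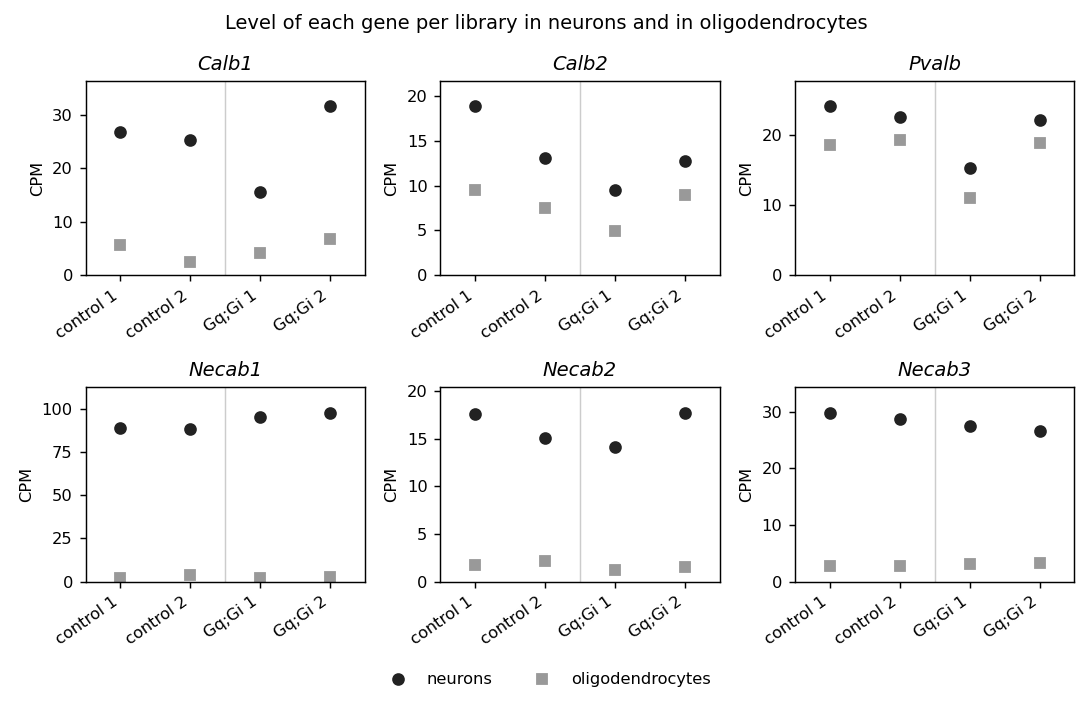
Level of each gene (CPM, y axis) in the 4 libraries (x axis, Gq;Gi for AgRP-Gq;POMC-Gi), with circles for neurons and squares for oligodendrocytes. Neurons stand far above oligodendrocytes for the Necab genes, whereas the *Pvalb* values of both types lie close in every library, 15.4 against 11.1 CPM in AgRP-Gq;POMC-Gi replicate 1.

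The share of nuclei with a UMI is the other measure of each gene. *Necab1* was found in 32.8% of neurons, *Necab3* in 21.6%, *Pvalb* in 14.6%, *Necab2* in 12.5%, *Calb1* in 12.3% and *Calb2* in 9.19%, and in oligodendrocytes, in the same order, in 0.678%, 0.779%, 4.31%, 0.428%, 1.24% and 2.00%. The median depth was 8704 UMIs per neuron and 2460 UMIs per oligodendrocyte, so every nucleus was also thinned at random to 800 UMIs. At that depth *Pvalb* was found in 1.60% of neurons and 1.65% of oligodendrocytes, so its share over all neurons did not exceed that of oligodendrocytes, and in the other types where it was found it ran from 0.776% in choroid plexus to 2.87% in ependymal cells. *Calb2* was found in 1.16% of neurons and 0.601% of oligodendrocytes, *Calb1* in 2.25% and 0.410%, and *Necab1* in 7.38% and 0.208%. Of all neurons, 33.7% had a UMI of none of the 6 genes, 38.4% of 1 gene, 20.6% of 2 genes and 6.07% of 3 genes, 147 neurons had 4 genes and 12 had 5, and no neuron had all 6. These counts grow with depth and include any free RNA, and thinned to 2000 UMIs 70.1% had none, 25.7% had 1 gene and 3.81% had 2 genes.

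Outside the neurons, a few cell types stood out. *Calb1* reached 64.2 ± 19.7 CPM in ependymal cells, which line the ventricles, with a UMI in 15.3% of 314 nuclei and 49.4 to 91.3 CPM in the 4 libraries, above the neurons of the same library in each. *Necab1* reached 63.0 ± 28.0 CPM in fibroblasts, with 68.7 to 83.5 CPM in 3 libraries but 22.0 CPM in AgRP-Gq;POMC-Gi replicate 2, against 6.27 CPM or less in every other type that is not neuronal. *Necab2* was at 7.23 and 4.47 CPM for control and 13.8 and 16.2 CPM for AgRP-Gq;POMC-Gi in oligodendrocyte precursor cells, on 33 UMIs. Both AgRP-Gq;POMC-Gi values there were the higher ones, but the gene was too sparse for the filter of the test, and with no gene filter edgeR's quasi-likelihood test gave an adjusted p of 0.726. It was at 10.5 to 14.7 CPM in 3 further types on 2 to 7 UMIs each. *Necab3* was at 14.3 ± 1.82 CPM in astrocytes, whose range lay above that of the oligodendrocytes, with 12.1 to 16.3 CPM in the libraries, and at 24.6 ± 15.6 CPM in ependymal cells, where 22 UMIs gave 11.7 to 44.8 CPM, also above the oligodendrocytes of each library. *Pvalb* ranged from 3.63 CPM in choroid plexus to 34.5 ± 15.6 CPM in endothelial cells, and the spread between libraries of its higher types overlapped with that of the neurons. *Calb2* was at 17.1 ± 6.47 CPM in endothelial cells and 14.6 ± 2.77 CPM in the immune cells marked by Tmem119, where the ranges overlapped with the neurons as well.

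The neurons were divided by the transporters *Slc17a6* and *Slc32a1*, which load vesicles with glutamate and GABA. A cluster was glutamatergic where *Slc17a6* was at least 4-fold above *Slc32a1* and GABAergic in the reverse case, which gave 69 glutamatergic, 46 GABAergic and 7 mixed clusters, and 12 clusters were not called for want of UMIs. *Slc32a1* was also listed here as a glycinergic marker, so the class called GABAergic was not divided from glycinergic neurons. *Slc6a5*, another listed glycinergic marker, was found in 80.7%, 63.7%, 33.0% and 61.7% of nuclei of the GABAergic clusters 81, 96, 89 and 102. *Gad2*, listed as a GABAergic marker, was found in 26.3%, 83.3%, 66.1% and 67.0% of them. *Calb1* was at 37.2 ± 10.0 CPM in glutamatergic and 12.8 ± 3.03 CPM in GABAergic neurons, and the libraries of the classes did not overlap. *Necab2* was also higher in glutamatergic neurons, at 21.5 ± 2.54 CPM against 9.32 ± 1.36 CPM, again without overlap. *Necab1* leaned the other way, at 78.8 ± 12.8 CPM in glutamatergic and 119.5 ± 11.8 CPM in GABAergic neurons, once more without overlap. *Calb2*, at 16.1 ± 5.06 CPM and 10.4 ± 2.04 CPM, was higher in the glutamatergic neurons of each library although the ranges of the classes overlapped, and *Pvalb*, at 19.7 ± 3.43 CPM and 21.9 ± 4.52 CPM, overlapped as well but was slightly higher in the GABAergic neurons of each library. *Necab3* was nearly level, at 29.0 ± 2.13 CPM and 27.1 ± 0.200 CPM. Of the neurons with a UMI of *Calb1*, 70.1% were glutamatergic (67.6 to 72.6% in the libraries), and of those with *Necab2*, 65.5% (62.4 to 68.2%), where glutamatergic neurons made up 49.5% of all neurons. These are descriptions without a test, because clusters were built from expression.

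**Figure D2:**
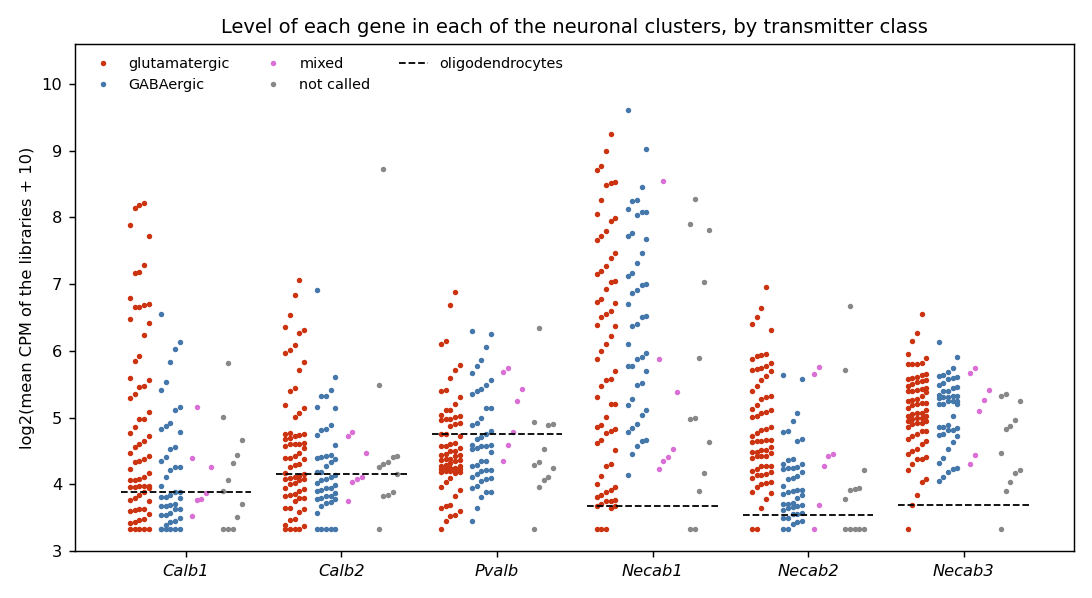
Each point is 1 of the 134 neuronal clusters, placed by gene (x axis) and by log2 of the mean CPM of the libraries + 10 (y axis) and coloured by transmitter class. The dashed line gives the level in oligodendrocytes. Most *Pvalb* clusters (85 of 134) lie on or under that line and most *Necab3* clusters above it. Heights of different genes are not comparable.

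Across clusters, the genes differed in how far their RNA was concentrated. For *Calb1*, 50% of the neuronal UMIs came from 10 clusters, which held 8.20% of the neurons. The same share took 17 clusters for *Pvalb*, 20 for *Calb2*, 20 for *Necab2*, 21 for *Necab1* and 28 for *Necab3*, with 31.8% of the neurons. A cluster was counted as high where the mean CPM was at least 4-fold that of all neurons, with at least 20 UMIs of the gene. There were 9 such clusters for *Calb1*, 9 for *Calb2*, 6 for *Necab1*, 5 for *Necab2*, 2 for *Pvalb* and 0 for *Necab3*. Without AgRP-Gq;POMC-Gi replicate 2 there were 5 for *Calb2*, and without control replicate 1 there were 3 for *Necab2*. All 9 high clusters of *Calb1* were glutamatergic, as were 7 of 9 for *Calb2*, both for *Pvalb*, 4 of 6 for *Necab1* and 4 of 5 for *Necab2*. In all, 26 of 134 clusters were high for a member, 5 of them for a pair of members. Measured against oligodendrocytes instead, a choice made after seeing the data, 87 clusters were 4-fold above that level for *Necab1*, 67 for *Necab3*, 34 for *Calb1*, 31 for *Necab2*, 14 for *Calb2* and 4 for *Pvalb*.

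*Calb1* was highest in 5 glutamatergic clusters. In cluster 105, which the deposited annotation names Ebf2/Calb1, it was at 286 and 288 CPM for control and 239.7 and 315 CPM for AgRP-Gq;POMC-Gi, with a UMI in 76.3% of its nuclei (66.4 to 84.5%), so the 4 libraries lay close. In cluster 146 (Rxfp1/Ebf2) it was at 160.1 and 345 CPM for control and 286 and 298 CPM for AgRP-Gq;POMC-Gi, and in cluster 117 (Ebf2/Nmu) at 196 and 384 CPM for control and 155 and 167 CPM for AgRP-Gq;POMC-Gi. The mean was as high in cluster 173 (Mecom/Oprk1), but there the libraries were far apart, at 270.3 and 714 CPM for control and 107 and 53.0 CPM for AgRP-Gq;POMC-Gi, with 139 of 169 UMIs from control replicate 2. The intervals given for shares are exact 95% Clopper-Pearson intervals, which cover counting error only.

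Cluster 72 (Ano2/Foxp2) held the most *Calb1* UMIs, 389 or 12.6% of the neuronal total in 1.01% of the neurons, and 85.8% of its nuclei (78.5 to 91.4%) had one. Its levels were 210.4 and 208 CPM for control and 111 and 274 CPM for AgRP-Gq;POMC-Gi. *Foxp2*, *Htr5b* and *Pou4f1*, listed here for the inferior olive, the source of climbing fibres, were at their highest of all neuronal clusters there (2264, 118 and 163 CPM of pooled libraries), and *Slc17a6* was found in 74.0% of nuclei, so the cluster is called inferior olive-like. It held 76 and 6 control nuclei and 6 and 39 AgRP-Gq;POMC-Gi nuclei, and gave 31.8%, 1.44%, 0.901% and 13.0% of their neuronal *Calb1* UMIs. Without it, a choice made after seeing the data, *Calb1* in neurons was at 19.1 and 24.9 CPM for control and 15.5 and 27.9 CPM for AgRP-Gq;POMC-Gi. *Calb1* had no UMI in 14 clusters, among them cluster 104 (Gabra6/Fat2), where 0 of 94 nuclei allows a share of nuclei with a UMI of up to 3.19% (3 nuclei of the total), which does not limit the share that expresses the gene.

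*Calb2* had its highest mean in cluster 182 (Samd3/Cnpy1), at 459 and 26.9 CPM for control and 177 and 994 CPM for AgRP-Gq;POMC-Gi, but on 26 UMIs in 27 nuclei, and with 1 UMI in control replicate 2, so its order among the libraries is uncertain. *Lmx1a* and *Eomes*, listed for unipolar brush cells, were at their highest of all neuronal clusters in the same nuclei, with 59 and 5 UMIs. *Otx2*, on the same list, had 3 UMIs there and peaked in cluster 104. *Slc17a6*, the last on that list, was at a library mean of 38.8 CPM in cluster 182, against 76.2 CPM in all neurons pooled. Better measured was cluster 130 (Qrfpr/Tac1), at 112 and 149 CPM for control and 88.3 and 144 CPM for AgRP-Gq;POMC-Gi, with a UMI in 57.6% of its nuclei (44.8 to 69.7%). Cluster 114 (Tac1/Tafa2) was at 86.3 and 38.6 CPM for control and 83.0 and 79.0 CPM for AgRP-Gq;POMC-Gi. Cluster 148 (Ccdc172/Ebf2) was at 75.1 and 0 CPM for control and 188 and 154 CPM for AgRP-Gq;POMC-Gi, on 36 UMIs. Its control values rested on 4 UMIs in 9 nuclei and 0 UMIs in 5 nuclei. The GABAergic cluster 171 (Otof/Gbx1) was at 22.3 and 239.6 CPM for control and 76.4 and 103 CPM for AgRP-Gq;POMC-Gi, on 27 UMIs. The names of clusters 130 and 114, ranks 2 and 6 by mean of all clusters before the minimum of UMIs, hold *Tac1*, the gene of substance P. In 62 of 134 clusters the mean did not exceed that of oligodendrocytes.

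*Pvalb* stood clearly above oligodendrocytes in a few clusters. In cluster 42 (Mylk/Mctp2), glutamatergic, it was at 116 and 129 CPM for control and 86.2 and 101 CPM for AgRP-Gq;POMC-Gi, and 65.1% of its nuclei (57.3 to 72.3%) had a UMI. In cluster 140 (Fgf10/Cpne4), also glutamatergic, it was at 88.5 and 84.9 CPM for control and 82.7 and 115 CPM for AgRP-Gq;POMC-Gi, with a UMI in 67.2% of its nuclei (54.0 to 78.7%). The libraries of both clusters lay close together and well above their oligodendrocytes. The GABAergic clusters 81 (Gbx1/Fgf10) and 96 (Npsr1/Igf1) were at 68.8 ± 20.1 CPM and 66.0 ± 23.3 CPM, and cluster 157 (Cnpy1/Adamts18) at 70.8 ± 36.9 CPM on 28 UMIs. In 85 of 134 clusters the mean was at or under that of oligodendrocytes, and in 20 clusters each library exceeded its own oligodendrocytes.

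*Necab1* was spread more widely. It was found in the majority of nuclei in 36 of 134 clusters and in under 10% in 41. Cluster 89, named Necab1/Arhgap15 and GABAergic, was at 849.7 and 805 CPM for control and 759 and 677 CPM for AgRP-Gq;POMC-Gi, and 97.2% of its nuclei (92.2 to 99.4%) had a UMI. Cluster 102, named Necab1/Pde1a and also GABAergic, was at 638 and 489 CPM for control and 465 and 451 CPM for AgRP-Gq;POMC-Gi, a mean of 511 CPM that ranked after cluster 170. Since these names come from the same counts, they are no separate support. The glutamatergic clusters 170 (Myo5b/Otof), 185 (Hmcn2/Abcb5) and 155 (Kcnh8/Arhgap6) were at 599.8 ± 210.4 CPM, 498 ± 216 CPM and 428 ± 56.3 CPM, of which cluster 155 varied least between libraries and cluster 185 had only 15 nuclei. At the other end, 5 clusters had no UMI, and cluster 42, highest for *Pvalb*, had 5 in 166 nuclei (3.43 ± 2.60 CPM).

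*Necab2* was highest in cluster 146 (Rxfp1/Ebf2), at 71.1 and 81.2 CPM for control and 201 and 102 CPM for AgRP-Gq;POMC-Gi. These values rested on 4 and 4 UMIs for control and 19 and 16 UMIs for AgRP-Gq;POMC-Gi. Of the 5 clusters named for *Necab2* the libraries lay closest in cluster 63 (Ebf2/Th), at 94.0 and 90.0 CPM for control and 96.3 and 80.2 CPM for AgRP-Gq;POMC-Gi. *Th*, the gene of tyrosine hydroxylase, was at its highest in cluster 63 and second in cluster 146, at 107 and 78.3 CPM, with no UMI of *Dbh*, the enzyme that makes noradrenaline, in either. Of the other listed catecholamine genes, *Ddc* had 2 and 1 UMIs in clusters 63 and 146 and *Slc6a2* 0 and 0. *Slc18a2* ranked 118 and 9 among the neuronal clusters there. Cluster 167 (Tph2/Slc6a4) was at 132 and 54.1 CPM for control and 92.3 and 91.4 CPM for AgRP-Gq;POMC-Gi, with a UMI in 58.1% of its nuclei (42.1 to 73.0%). These values rested on 33 and 3 UMIs for control and 9 and 2 UMIs for AgRP-Gq;POMC-Gi. *Tph2*, *Slc6a4* and *Fev*, which mark serotonin neurons, were at their highest there, and the cluster is called serotonin-like. Clusters 161 (Slc17a7/Col27a1) and 105 (Ebf2/Calb1) were at 80.6 ± 41.5 CPM and 69.6 ± 11.2 CPM. Of the 5 high clusters of *Necab2*, 3 (63, 105 and 146) were also high for *Calb1* (60.0% of its 5 and 33.3% of the 9 of *Calb1*), and all 3 carry *Ebf2* in their names.

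*Necab3* was the most even. Its cluster means had a median of 25.8 CPM, no cluster reached 4-fold the level of all neurons, and 98 of 134 clusters exceeded the oligodendrocytes in each library. The SD of log2(CPM + 10) over clusters was 0.549, against 0.717 for *Pvalb*, 0.854 for *Necab2*, 0.892 for *Calb2*, 1.23 for *Calb1* and 1.63 for *Necab1*. Since 10 CPM is added, this SD also depends on the level of a gene. *Necab3* peaked in the inferior olive-like cluster 72, at 67.1 and 83.1 CPM for control and 89.1 and 96.4 CPM for AgRP-Gq;POMC-Gi, with a UMI in 60.6% of its nuclei (51.6 to 69.2%). These values rested on 73 and 4 UMIs for control and 4 and 51 UMIs for AgRP-Gq;POMC-Gi. The next clusters, 170, 143 (Kcnq5/Hs3st4), 165 (Hcrtr2/L3mbtl4) and 162 (Chrdl1/Kcnh8), had means of 50.3 to 67.1 CPM on 21 to 29 UMIs and did not differ beyond their spread.

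**Figure D3:**
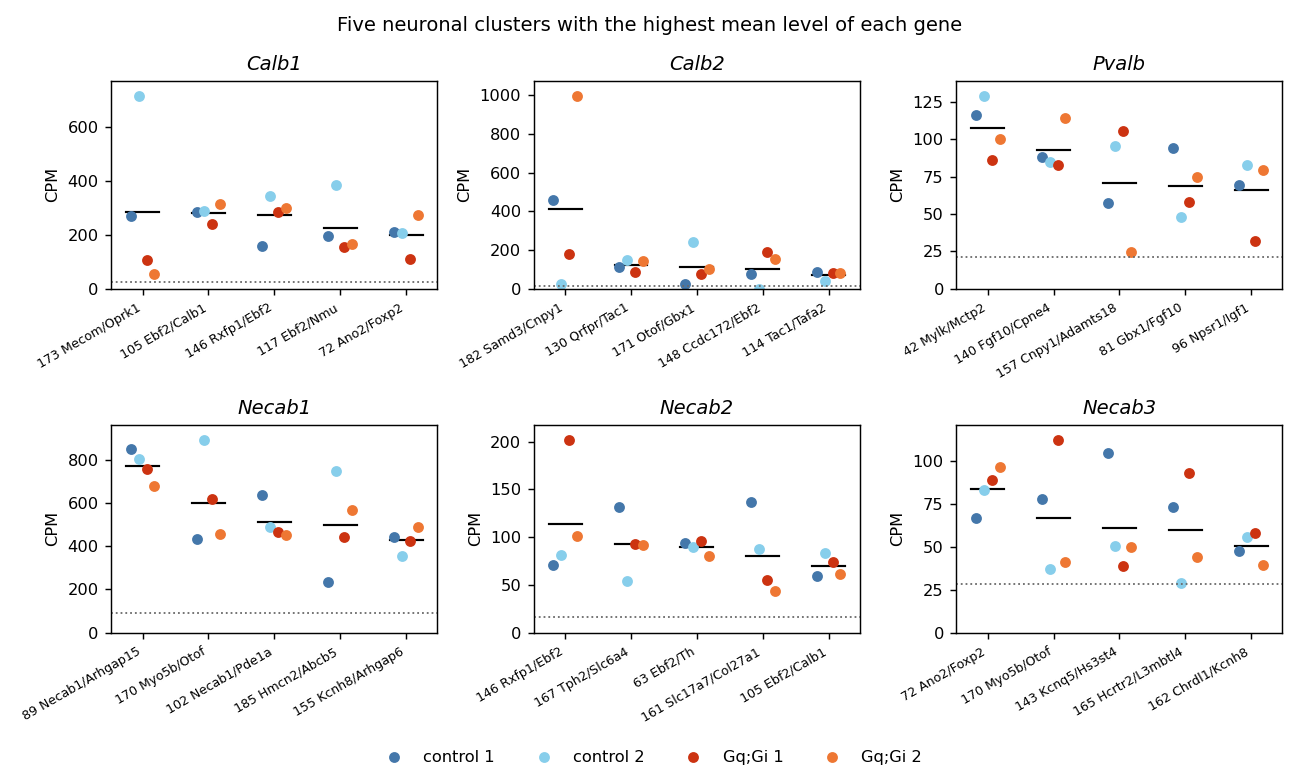
CPM (y axis) of each gene in the 5 neuronal clusters with its highest mean (x axis, cluster number and name), with a point per library and a bar at the mean. The dotted line gives the level in all neurons. Libraries lie close for *Calb1* in cluster 105 (239.7 to 315 CPM) and *Necab1* in cluster 89 (677 to 849.7 CPM) and far apart for *Calb1* in cluster 173 and *Calb2* in cluster 182.

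Whether the genes shared clusters was described over the 134 neuronal clusters with libraries pooled, on log2(CPM + 10). The clusters share libraries and differ in depth, so the correlations carry no p. Pearson's r was 0.45 for *Calb1* and *Necab2* (Spearman's rho 0.40), 0.40 for *Calb1* and *Necab1* (rho 0.41) and -0.49 for *Pvalb* and *Necab1* (rho -0.48). The other 12 pairs lay between -0.25 (*Calb1* and *Pvalb*) and 0.17 (*Calb1* and *Calb2*). *Necab1* and *Pvalb* tended to part, most clearly in clusters such as 42 and 89, where *Pvalb* had 210 and 6 UMIs and *Necab1* 5 and 602. In 85 of the 134 clusters, however, the *Pvalb* mean was at or under that of oligodendrocytes. The part of free RNA in this correlation was not tested.

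In single nuclei the same pairs stood out. With 12373 neurons thinned to 2000 UMIs, 41 had both *Calb1* and *Necab2*, 2.32 times the 17.7 expected if the genes were independent over all neurons (1.48 to 3.37 in the libraries). *Calb1* and *Necab1* were found together in 151 nuclei, 1.86 times the expected number (1.65 to 2.17), and *Pvalb* and *Necab1* in 39, 0.578 times (0.422 to 0.760). With the expectation taken within each cluster, the ratios were 1.23, 1.18 and 0.832, and the library values of each spanned 1 (0.645 to 1.38, 0.912 to 1.41 and 0.601 to 1.13). Over the unthinned neurons, with 336, 791 and 420 nuclei, the ratios within clusters were 1.17, 1.19 and 0.959, but nuclei differ in depth there, and 6 of the 15 pairs were above 1 in all 4 libraries and 1 (*Pvalb* and *Necab1*) under 1. Of the remaining 12 pairs, thinned and with 9 to 88 nuclei each, *Calb2* and *Pvalb*, at 9 nuclei, were the only one whose ratio over all neurons lay on the same side of 1 in all 4 libraries (0.555 to 0.755), and their ratio within clusters was 0.993.

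**Figure D4:**
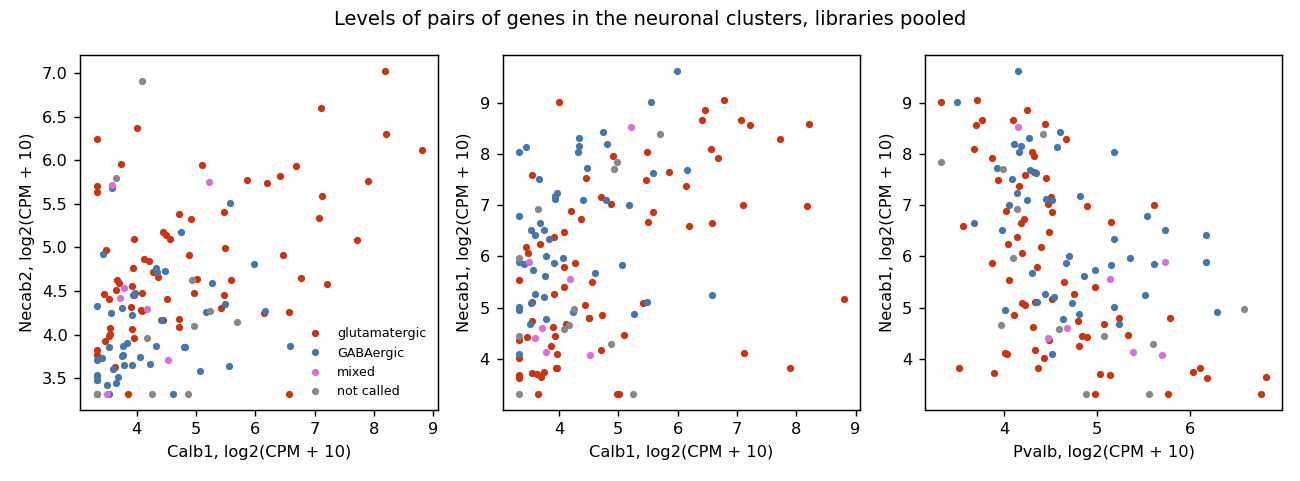
Levels of *Calb1* and *Necab2* (left), *Calb1* and *Necab1* (middle) and *Pvalb* and *Necab1* (right) in the 134 neuronal clusters, both axes as log2 of pooled CPM + 10, coloured by transmitter class. Points rise together on the left and in the middle (r = 0.45 and 0.40) and fall on the right (r = -0.49).

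Among 13053 genes with at least 500 UMIs in neurons, the 5 with the cluster pattern most like each member, by Pearson's r over the 134 clusters, were as follows. *Calb1* was most like *Cacna1h* (0.62), *Dlgap3* (0.62), *Fxyd5* (0.61), *C130021I20Rik* (0.58) and *Ulk4* (0.58). *Pvalb* was most like *Mitf* (0.69), *Gpatch8* (0.68), *Inpp5j* (0.66), *Pla2g3* (0.66) and *Kcna1* (0.65), of which *Kcna1* encodes a potassium channel of fast-firing axons. *Necab1* was most like *Gm11844* (0.95), *Zcchc18* (0.68), *Bmper* (0.62), *Sidt1* (0.62) and *Gm29587* (0.62). *Necab2* was most like *C130021I20Rik* (0.53), *Camkv* (0.52), *Traip* (0.52), *Camk2a* (0.49) and *Lmx1b* (0.49), and *Camk2a* and *Camkv* encode a calcium/calmodulin-dependent kinase and a relative of it. *Necab3* was most like *1700003F12Rik* (0.71), *Cit* (0.52), *Syt3* (0.51), *Gab3* (0.51) and *Mrpl21* (0.50), and *Calb2* was most like *Ppdpf* (0.48), *Rpn1* (0.41), *Trp53bp2* (0.40), *Zfp609* (0.40) and *Eif3d* (0.39), the weakest likeness. *Gm11844* and *1700003F12Rik* overlap *Necab1* and *Necab3* in the genome. With Spearman's rho, a pseudocount of 1 CPM or clusters with at least 40 nuclei, 1 to 5 of the 5 genes stayed in the list, 4 or 5 of them for *Necab2* under each.

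For comparison, 40 other genes with EF-hands were listed. The 5 that varied most over the neuronal clusters were the potassium channel-interacting proteins *Kcnip1*, *Kcnip4* and *Kcnip3*, with an SD of log2(CPM + 10) of 1.42, 1.40 and 0.884, and *Caln1* and *Hpcal1*, with 0.969 and 0.872. With 10 CPM added, genes of low level can vary little by this measure, and *Kcnip4* was at 4128 ± 164 CPM in neurons. *Kcnip1* was at 234 ± 7.13 CPM in neurons and found in 53.8% of them, and peaked in cluster 80 at 1269 CPM. *Caln1*, calneuron, peaked in cluster 42 at 971 CPM, the cluster highest for *Pvalb*.

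Between the groups, no member passed the test in neurons. UMIs were summed per library and tested with edgeR's quasi-likelihood test over the genes detected in 5% of the nuclei or more, with Benjamini-Hochberg adjustment. Of 12115 genes tested in all neurons 0 were called (0%), and 667 had an unadjusted p under 0.05. Of the 6 members 0 were called and 2 had an unadjusted p under 0.05. With DESeq2, 12 genes were called and 0 of them were members. Fold changes are log2 of AgRP-Gq;POMC-Gi over control ± SE. *Calb2*, at the values given above, was lower in both AgRP-Gq;POMC-Gi libraries than in either control library, with a log2 fold change of -0.47 ± 0.195 (adjusted p = 0.810), which was -0.18 ± 0.222 without control replicate 1 and -0.71 ± 0.213 without control replicate 2. *Necab1* was higher in both, by 0.18 ± 0.0643 (adjusted p = 0.810). *Pvalb* had -0.26 ± 0.147 (adjusted p = 0.810), *Calb1* -0.10 ± 0.256, *Necab3* -0.056 ± 0.0947 and *Necab2* 0.019 ± 0.130. The plain log2 ratio of mean CPM, without TMM factors or a test, was -0.14, -0.52, -0.31, 0.12, -0.036 and -0.12 in the order *Calb1*, *Calb2*, *Pvalb*, *Necab1*, *Necab2* and *Necab3*. With an equal weight for each of the 120 clusters with 5 nuclei or more per library, in place of each UMI of all 134, the plain ratio was -0.32 for *Calb1* (-0.16 without cluster 173, where its mean was highest, a choice made after seeing the data), -0.32 for *Calb2*, -0.26 for *Pvalb*, 0.048 for *Necab1*, -0.026 for *Necab2* and -0.0089 for *Necab3*. With each UMI weighted equally again and only cluster 72 left out, the plain ratio was -0.023, -0.45, -0.31, 0.10, 0.014 and -0.11 in the same order. In CPM, 3 members (*Calb2*, *Pvalb* and *Necab3*) were lower in both AgRP-Gq;POMC-Gi libraries and 1 (*Necab1*) higher, where 27.7% of all genes were lower in both and 10.4% higher.

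In oligodendrocytes, fitted without a gene filter, the log2 fold changes were -0.26 ± 0.214 for *Calb2* and -0.31 ± 0.172 for *Pvalb*. They were 0.40 ± 0.254 for *Calb1*, -0.15 ± 0.322 for *Necab1*, -0.44 ± 0.402 for *Necab2* and 0.28 ± 0.314 for *Necab3*. Less the oligodendrocyte level of each library, *Calb2* in neurons was at 9.32 and 5.63 CPM for control and 4.55 and 3.81 CPM for AgRP-Gq;POMC-Gi, without overlap. *Pvalb* was at 5.56 and 3.25 CPM against 4.31 and 3.29 CPM, with overlap. The part of free RNA in the differences was not tested. *Calb1* and *Pvalb* were lowest in AgRP-Gq;POMC-Gi replicate 1, and the calls turned on whether AgRP-Gq;POMC-Gi replicate 2 was kept. Without it, 3 members were called in all neurons, *Calb1* (-0.62 ± 0.0890, adjusted p = 0.00844), *Pvalb* (-0.49 ± 0.0929, adjusted p = 0.0175) and *Necab1* (0.22 ± 0.0467, adjusted p = 0.0242), but 2017 of all 12115 genes were called with them in this fit of 1 library against 2. Without AgRP-Gq;POMC-Gi replicate 1 none was called, *Calb1* had the opposite sign (0.28 ± 0.0772) and *Pvalb* had -0.066 ± 0.0861.

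Within the transmitter classes, 0 of 6 members were called in glutamatergic neurons, as were 0 of 12150 genes (0%), and 0 of 6 in GABAergic neurons, as were 0 of 12097 (0%). At an unadjusted p under 0.05 there were 2 and 0 members and 677 and 602 genes, and 11 and 3 genes but no member were called by DESeq2. Without AgRP-Gq;POMC-Gi replicate 2, *Calb1* was called in glutamatergic (-0.65 ± 0.104, adjusted p = 0.0188) and *Pvalb* in GABAergic neurons (-0.56 ± 0.133, adjusted p = 0.0364), in fits that called 553 and 896 genes in all. *Necab1* was at 66.9 and 74.8 CPM for control and 76.5 and 97.0 CPM for AgRP-Gq;POMC-Gi in glutamatergic neurons (0.35 ± 0.104, adjusted p = 0.847) and at 125 and 119 CPM for control and 131 and 103 CPM for AgRP-Gq;POMC-Gi in GABAergic neurons (0.0034 ± 0.131, adjusted p = 0.998). The test of the difference between the classes itself called 0 of 12354 genes (0%) and 0 of 6 members, with 601 genes and 0 members at an unadjusted p under 0.05, and 0 genes with DESeq2. For *Necab1* the GABAergic minus the glutamatergic log2 fold change was -0.36 ± 0.185 (adjusted p = 0.990). Leaving out AgRP-Gq;POMC-Gi replicate 1, it was -0.70 ± 0.0997 (adjusted p = 5.26e-09, with 149 of 12354 genes called in that fit) and without AgRP-Gq;POMC-Gi replicate 2 it was 0.0014 ± 0.0988, so the AgRP-Gq;POMC-Gi libraries differed in it.

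**Figure D5:**
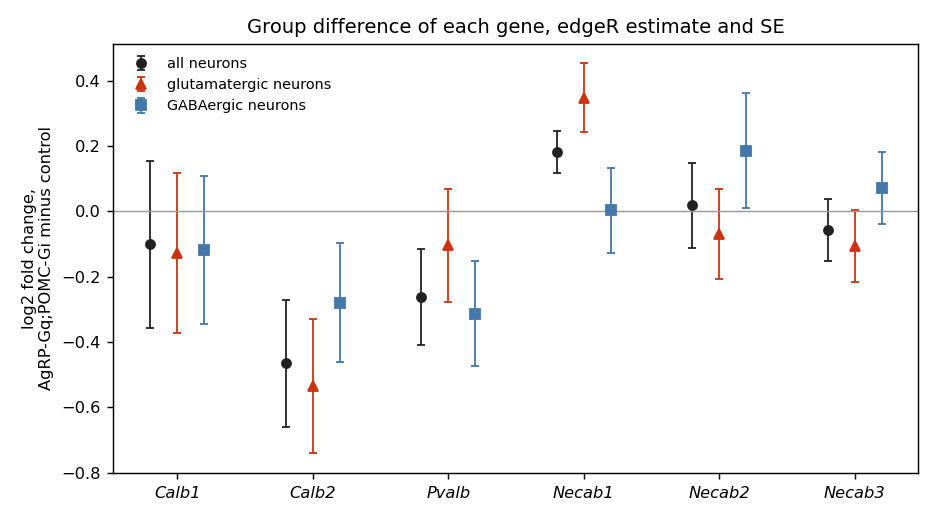
Log2 fold change of AgRP-Gq;POMC-Gi over control (y axis) for each gene (x axis) in all, glutamatergic and GABAergic neurons, as edgeR estimates from 2 libraries per group with SE bars. The lowest estimate is that of *Calb2* in glutamatergic neurons (-0.54) and the highest that of *Necab1* there (0.35), and none passed the adjusted threshold of 0.05.

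In single clusters, 120 of the 134 neuronal clusters had at least 5 nuclei in every library. Of 540 pairs of member and cluster that passed the filter, 0 were called with edgeR, where 0.0385% of all 1396489 pairs of gene and cluster were. At an unadjusted p under 0.05 there were 36 pairs (6.67%), 15 higher and 21 lower, against 4.52% of all pairs, and DESeq2 called 0 of them with 6 at an unadjusted p under 0.05, where over all pairs it called 43 and had 0.390% at an unadjusted p under 0.05. By gene these were 12 of 104 clusters for *Necab1* (9 higher), 9 of 65 for *Calb1* (4 higher), 7 of 74 for *Calb2* (1 higher), 6 of 100 for *Pvalb* (0 higher), 2 of 82 for *Necab2* (1 higher) and 0 of 115 for *Necab3*. The smallest p was that of *Calb1* in cluster 173, at the values given above (-2.75 ± 0.685, adjusted p = 0.114), where both control libraries were above both others, and which was called without AgRP-Gq;POMC-Gi replicate 1 (-3.75 ± 0.922, adjusted p = 0.0308, with 1158 pairs of gene and cluster called in all against 537 with all libraries). Without control replicate 2 it was -1.68 ± 0.859. *Necab1* in cluster 68 (Klhl1/Tafa1) was at 13.5 and 15.3 CPM for control and 38.9 and 83.9 CPM for AgRP-Gq;POMC-Gi (2.00 ± 0.509, adjusted p = 0.268), and was called with the replicate number as a block (2.17 ± 0.529, adjusted p = 0.0314). *Necab1* in cluster 156 (Ankfn1/Pou4f1) was at 172 and 88.9 CPM for control and 263 and 327 CPM for AgRP-Gq;POMC-Gi (1.21 ± 0.366, adjusted p = 0.172). Of the other pairs, *Necab1* in cluster 74 was called without control replicate 2 (-2.89 ± 0.634, against -2.43 ± 0.677 with all libraries). *Necab1* in cluster 39 was called without AgRP-Gq;POMC-Gi replicate 2 (1.42 ± 0.328, against 0.99 ± 0.402). These fits leave a lone library in a group, and over all genes they also called more pairs than the fits with all libraries.

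In the 13 other cell types, 9 pairs of member and type passed the filter and 0 were called with edgeR (2 at an unadjusted p under 0.05) or DESeq2 (0 at an unadjusted p under 0.05), where 0.102% of all 88959 pairs of gene and type were called. Of the 40 other EF-hand genes, 27 were tested in all neurons and 0 were called, with 4 lower and 0 higher at an unadjusted p under 0.05, which 5.51% of all genes had. Their median log2 fold change was -0.049, against -0.00029 over all genes. Among the lowest were *Efhd2* (-0.46 ± 0.176) and *Calm3* (-0.36 ± 0.143), and the highest were *Hpcal4* (0.23 ± 0.131), *Cetn3* (0.14 ± 0.0895) and *Pdcd6* (0.11 ± 0.0876), with adjusted p from 0.810 to 0.826. *Calm3* was at 47.8 and 47.1 CPM for control and 28.6 and 42.6 CPM for AgRP-Gq;POMC-Gi, with AgRP-Gq;POMC-Gi replicate 1 the lowest, as for *Efhd2*, *Calb1*, *Calb2* and *Pvalb*. Without AgRP-Gq;POMC-Gi replicate 2, *Calm3* (-0.61, adjusted p = 0.00513) and *Efhd2* (-0.72, adjusted p = 0.0159) were among the 2017 genes called, and with the replicate block *Calm3* (-0.38, adjusted p = 0.0345) was among 169, whereas without AgRP-Gq;POMC-Gi replicate 1 the values were -0.15 for *Calm3* and -0.24 for *Efhd2*.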

How the data were processed

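Nuclei of the hindbrain tissue that holds the area postrema and the nucleus of the solitary tract were sequenced in 4 libraries. The authors deposited, per library, counts of UMIs for each gene and barcode, without normalization, and a table of quality control, cell types and clusters. The submitters' processing notes name Cell Ranger 7.0.0 and Seurat 4.3.0 and the build GRCm38. UMI totals in the table equalled those in the counts for all barcodes. A deposited file of the whole series was not used here. Barcodes marked as passing quality control were kept, so doublets are as the authors' marking left them. Whether each library is a mouse of its own is not given in the sources used here, so p-values measure only the spread between libraries.

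UMIs were summed per library and cell type, cluster or transmitter class, given as CPM, and tested between groups with edgeR 4.0.16 (quasi-likelihood test, TMM factors, R 4.3.3, genes detected in 5% of the nuclei or more, clusters with 5 nuclei or more per library). The class by group term was fitted with library as a term. Adjusted p-values are Benjamini-Hochberg over the genes of each fit, two-sided, at 0.05. DESeq2 1.42.0, other filters, library sizes without TMM factors, a block for the replicate number and the omission of each library were the alternatives. For a member, the 5 clusters with the highest mean among those with at least 20 UMIs and a UMI in 3 libraries are named, the 5 genes with the most similar pattern (at least 500 UMIs), and the 3 pairs of member and cluster with the smallest p. Of the other EF-hand genes, the 3 highest, the 3 lowest and the 5 most variable are named, except 1 that is not reported here. Which of the listed cell type markers and cluster names are mentioned was chosen after values were seen. Members and lists were chosen with earlier results of these data known. Scripts ran in Python 3.11.15 and R 4.3.3, and the fit was tested on simulated counts with a spread set in advance. Of 200 genes changed 2-fold, 1% were recovered in cluster 103, of median size, and 0% in cluster 28, the largest. Of 200 changed 4-fold, 62.5% and 77% were recovered, so changes in single clusters could be missed. In all neurons, where a smaller spread was set, 100% were recovered at either fold, with 9 false calls at 2-fold and 6 at 4-fold. That spread was not estimated from the data. This recovery therefore cannot tell whether a 2-fold change of a member in all neurons would be called.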

Additional observations from a re-analysis of the deposited data

Results flagged for a closer look

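Among the barcodes that did not pass the authors' quality control, 1003 to 1318 per library and used in no comparison, *Necab1* stood at 72.4 and 63.1 CPM in the AgRP-Gq;POMC-Gi libraries, a mean of 67.8 CPM, against 45.8 and 50.5 CPM in the control libraries, a mean of 48.1 CPM. It was singled out as a signal above the controls in data outside the comparisons. In the kept nuclei of all types together it was at 67.7 and 66.4 CPM in the AgRP-Gq;POMC-Gi and 49.7 and 52.7 CPM in the control libraries, where the AgRP-Gq;POMC-Gi libraries also held the larger share of neurons, and the part of cell makeup in the difference was not tested. The other 5 members were not singled out this way, since only signals above the controls were. *Pvalb* was lower there, at 21.6 and 24.7 CPM in the AgRP-Gq;POMC-Gi libraries against 35.9 and 32.3 CPM in the control libraries. So was *Calb2*, at 11.7 and 15.2 CPM against 19.1 and 18.3 CPM. The groups overlapped for *Calb1*, *Necab2* and *Necab3*. The share of all genes that differ in this way in these barcodes was not computed.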

How the results depend on the processing

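The limits are 2 libraries per group, few UMIs per gene and cluster, and free RNA. Leaving out each library in turn gave 0 to 3 members called in all neurons, 0 to 1 in glutamatergic neurons, in GABAergic neurons, in clusters and in the class by group term, and 0 in the other cell types; in those fits the lone library of a group is assumed to vary like the other group. The log2 fold change of *Calb1* then ranged from -0.62 to 0.28 in all, -0.65 to 0.25 in glutamatergic and -0.57 to 0.20 in GABAergic neurons, and its class by group term from -0.048 to 0.11. *Calb2* kept its sign, from -0.71 to -0.18 in all and -0.80 to -0.22 in glutamatergic neurons. *Pvalb* ranged from -0.49 to -0.066 in all and -0.38 to 0.12 in glutamatergic neurons, *Necab1* in GABAergic neurons from -0.24 to 0.21 and its class by group term from -0.70 to 0.0014. *Necab2* ranged from -0.091 to 0.14 in all, -0.20 to 0.073 in glutamatergic and -0.0082 to 0.34 in GABAergic neurons, and *Necab3* in all neurons from -0.14 to 0.021. Library sizes without TMM factors shifted the median of all genes to -0.060 and reversed *Necab1* in GABAergic neurons (-0.063) and *Necab2* in all neurons (-0.037), and the cause of other changes was not tested. The replicate numbers share only a number (correlation of deviations 0.18 for both, equal by construction with groups of 2). With them as a block, 1 member was called in a cluster (*Necab1* in cluster 68), *Necab1* in GABAergic neurons reversed (-0.011), and no other member's call changed. Over all genes the counts of calls moved more. In all neurons they were 0 in the report, 12 with DESeq2, 169 with the block and 3 to 2017 without a library, and over pairs of gene and cluster 537, 43 with DESeq2, 110 with filterByExpr, 1102 without a filter, 792 with the block and 792 to 1338 without a library. With a 2-fold limit, 20 clusters were high for *Calb1*, 17 for *Calb2*, 12 for *Pvalb*, 30 for *Necab1*, 18 for *Necab2* and 4 for *Necab3*, and with an 8-fold limit 5, 3, 0, 1, 0 and 0.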
